A study of Mus musculus with 12 samples.

Results

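The genes described here are 9 genes of polyamine metabolism, Odc1, Amd1, Srm, Sms, Smox, Sat1, Oaz1, Oaz2 and Azin1, out of 29564 rows in the deposited tables. Each was found by its symbol in the table of estimated counts, and all 9 were among the 14333 genes that passed the filter on low counts. The list holds the textbook enzymes and regulators of the pathway, but it was selected on group differences already seen in these same libraries. The levels below, and every difference between groups for these 9 genes, are therefore given as a description with no test, and no p-value is attached to them. The libraries were made from polyadenylated RNA of left ventricles of 12 wild-type (WT) mice labelled C57BL6 (C57BL/6J in the study's methods), 4 mice to a group and 1 library to a mouse. Control + Veh mice were non-failing and received vehicle, a mixture of DMSO, PEG-300 and water. HFpEF + Veh mice were a model of HFpEF (heart failure with preserved ejection fraction), induced by a high-fat diet together with L-NAME, which blocks nitric oxide synthase, and received the same vehicle. HFpEF + TYA-018 mice carried that model and received 15 mg/kg TYA-018, a small-molecule inhibitor of the cytosolic deacetylase HDAC6, orally. The title of the series names 1 dose, whereas the labelled protocol has daily dosing over weeks. The paper also describes RNA-Seq of hearts collected hours after 1 dose of 15 mg/kg, at a time when the heart had not yet improved. The title was taken as the design, so differences with TYA-018 are those soon after dosing and not after long treatment. No Control + TYA-018 libraries were analysed here, so TYA-018 is compared with vehicle in the HFpEF model only, and high-fat diet and L-NAME were always given together. Libraries carry a letter and a number, with C1 to C4 for Control + Veh, V1 to V4 for HFpEF + Veh and T1 to T4 for HFpEF + TYA-018. The animals of a group had neighbouring numbers, so cage, date or order of handling cannot be told apart from the group, and the labels gave no age.

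Polyamines (putrescine, spermidine and spermine) are small positively charged molecules that bind RNA and DNA, tune ion channels of heart muscle and support translation. Ornithine decarboxylase (Odc1) makes putrescine from ornithine, S-adenosylmethionine decarboxylase (Amd1) supplies aminopropyl groups, and spermidine synthase (Srm) and spermine synthase (Sms) add them in turn. Spermine oxidase (Smox) converts spermine back to spermidine with release of hydrogen peroxide, and spermidine/spermine acetyltransferase (Sat1) marks polyamines for oxidation and export. Antizymes (Oaz1 and Oaz2) bind Odc1 protein and send it to the proteasome, and antizyme inhibitor (Azin1) holds antizymes away from it.

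Total estimated counts were between 61.2 M and 83.9 M (1e06) per library, and T1 was the deepest. Counts from mitochondrially encoded genes made up 37.0% to 40.6% of a Control + Veh library, 43.1% to 47.7% of an HFpEF + Veh library and 35.4% to 41.2% of an HFpEF + TYA-018 library. The 6 cardiomyocyte markers, all detected, summed to between 23501 and 32463 CPM (counts per 1e06 counts, after scaling by trimmed mean of M values) in Control + Veh, 22224 and 23972 CPM in HFpEF + Veh and 24663 and 27141 CPM in HFpEF + TYA-018. Each of the 9 polyamine genes had at least 358 estimated counts in every library, the lowest being a Srm value.

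The sequences before the start sites of Smox and Odc1 are shown because these were the genes whose HFpEF + Veh libraries all lay above the Control + Veh libraries, and that of Sms because it held the only E-box found. They are the 250 bases before the annotated start, from RefSeq on GRCm38.p6, read 5′ to 3′ on the strand of the gene, with any CACGTG (the E-box that Myc and Max bind) or TATAAA on either strand in capitals. The Smox window is chr2:131491612-131491861 (+), that of Odc1 chr12:17544623-17544872 (+) and the Sms window shown chrX:157492288-157492537 (-). For Smox and Odc1 the GENCODE M21 gene given below begins before the RefSeq start, so by GENCODE the whole Smox window and the end of the Odc1 window lie inside the gene.
Smox: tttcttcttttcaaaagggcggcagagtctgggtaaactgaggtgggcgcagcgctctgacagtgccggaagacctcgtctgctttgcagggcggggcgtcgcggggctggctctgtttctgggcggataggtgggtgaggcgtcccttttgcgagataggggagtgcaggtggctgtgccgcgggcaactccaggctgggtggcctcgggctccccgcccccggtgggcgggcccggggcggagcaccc
Odc1: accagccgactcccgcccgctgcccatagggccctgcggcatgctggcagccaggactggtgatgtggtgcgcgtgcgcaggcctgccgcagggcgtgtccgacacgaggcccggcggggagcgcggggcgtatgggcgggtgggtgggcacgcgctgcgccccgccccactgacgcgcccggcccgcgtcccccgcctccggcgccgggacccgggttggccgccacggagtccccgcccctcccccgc
Sms: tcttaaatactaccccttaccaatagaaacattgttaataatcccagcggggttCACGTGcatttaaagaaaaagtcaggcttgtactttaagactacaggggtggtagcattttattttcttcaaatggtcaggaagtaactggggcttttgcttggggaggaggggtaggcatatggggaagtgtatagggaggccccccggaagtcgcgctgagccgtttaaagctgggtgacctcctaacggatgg
Windows of 300 bases (250 before the start and 50 after it) were found for 7 of the 9 genes, in 8 windows, since Sms had 2. CACGTG was in 1 of these windows, against 7.15% of all 32851 windows, and TATAAA was in 1, that of Oaz1 across its start, against 13.6% of all. These matches describe letters in the windows and are not mapped binding sites. The GC content of the windows ran from 50.3% (the Sms window shown) to 78.0% (Odc1), against a median of 52.7% over all windows, and the Smox window had 71.0%.

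Smox (spermine oxidase) had the largest difference of the 9 genes both between HFpEF + Veh and controls and between TYA-018 and vehicle in HFpEF hearts. Its level was 17.6, 18.9, 18.5 and 20.4 CPM in C1 to C4, 31.8, 31.0, 28.7 and 27.2 CPM in V1 to V4, and 20.8, 22.0, 19.9 and 20.7 CPM in T1 to T4. The lowest HFpEF + Veh heart lay above every other heart of the series, whereas the HFpEF + TYA-018 hearts lay just above or among the controls. Group means were 18.9 ± 1.19, 29.7 ± 2.12 and 20.9 ± 0.889 CPM (SD, n = 4) for the control, HFpEF + Veh and HFpEF + TYA-018 groups. The fitted log2 difference was 0.65 ± 0.066 (SE) for HFpEF + Veh over Control + Veh, or 1.57-fold. For HFpEF + TYA-018 it was -0.51 ± 0.066 against HFpEF + Veh, or 1.42-fold lower, and 0.14 ± 0.066 against Control + Veh. Of the HFpEF + TYA-018 hearts, 3 of 4 were above all controls, with T3 the exception. Smox (chr2:131491496-131525922 on GRCm38) shared no stretch of 50 bases with the transcripts of another gene, so its counts were not split with a near copy. The deposited effective length of Smox differed as well, from 1122 to 1252 bases in Control + Veh, from 936 to 1077 in HFpEF + Veh and from 996 to 1153 in HFpEF + TYA-018. Effective length is salmon's estimate of the usable transcript length, which depends on the transcripts and fragments seen in a library. The Control + Veh and HFpEF + Veh lengths did not overlap for Smox and Amd1 among the 9 genes, and for 15.8% of all genes tested. On the TPM scale, which divides by that length, Smox was between 5.32 and 5.70 in Control + Veh, 7.75 and 10.3 in HFpEF + Veh and 5.94 and 9.48 in HFpEF + TYA-018, where T1 and T2 (9.48 and 8.38) lay within the HFpEF + Veh range. The deposited TPM include mitochondrially encoded genes, at 43.1% to 47.7% of counts in HFpEF + Veh, 35.4% in T1 and 38.2% in T2. With those genes removed, a fit on log2(TPM + 1) gave 0.85 for HFpEF + Veh over Control + Veh and -0.52 for HFpEF + TYA-018 over HFpEF + Veh. Effective lengths in the fit gave 0.94 and -0.75 for these. HFpEF + TYA-018 over Control + Veh was between 0.14 and 0.33 in the alternatives other than leaving out a library.

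The other catabolic gene, Sat1 (chrX:155213132-155216449), did not separate the groups in CPM. It was 21.9, 26.3, 23.1 and 24.8 CPM in the controls, 24.1, 25.1, 25.3 and 24.1 CPM in HFpEF + Veh and 24.9, 24.6, 23.0 and 21.7 CPM in HFpEF + TYA-018. All 3 groups overlapped, and the HFpEF + Veh hearts lay entirely within the range of the controls. Its log2 differences were 0.04 ± 0.067 (HFpEF + Veh over Control + Veh), -0.06 ± 0.067 (HFpEF + TYA-018 over HFpEF + Veh) and -0.03 ± 0.067 (HFpEF + TYA-018 over Control + Veh). When the deposited effective lengths were entered in the fit the second value was -0.36 and the first 0.26. On log2(TPM + 1) values the first was 0.21.

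**Figure D1:**
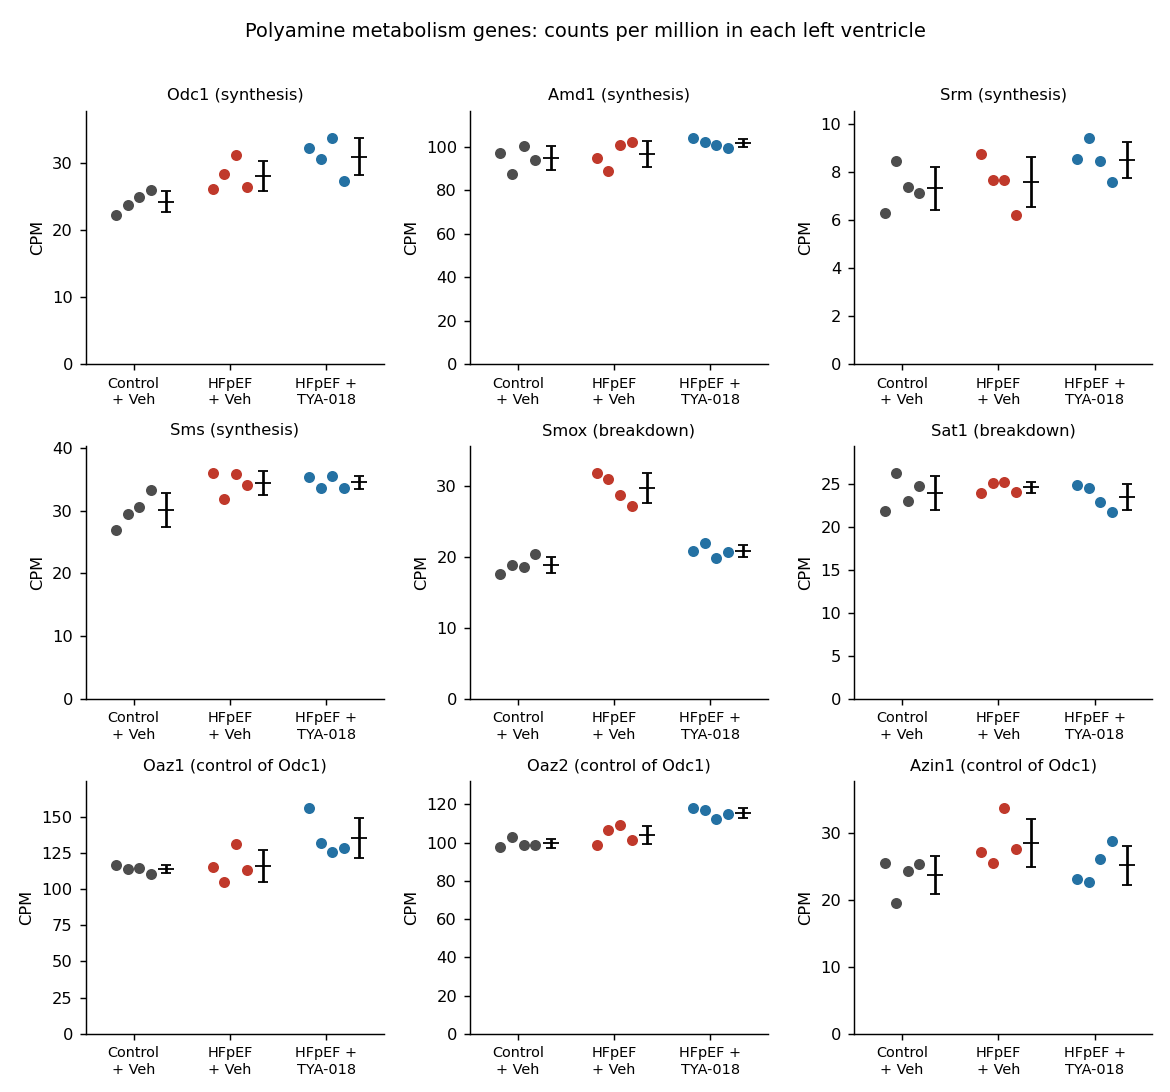
CPM (y axis, from 0) of the 9 polyamine metabolism genes in each of the 12 left ventricles, by group; points are libraries in the order of their numbers, and the black bar beside them is the mean ± SD (n = 4). Smox was between 27.2 and 31.8 CPM in HFpEF + Veh, above all 8 other hearts, while Oaz2 was highest in HFpEF + TYA-018.

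Among the synthetic enzymes, Odc1, which catalyses the entry step, was higher in both HFpEF groups than in controls. Odc1 was 22.3, 23.8, 24.96 and 25.9 CPM in the controls, 26.1, 28.4, 31.1 and 26.5 CPM in HFpEF + Veh and 32.2, 30.6, 33.7 and 27.3 CPM in HFpEF + TYA-018. Every heart of both HFpEF groups lay above every control, by a narrow margin for V1 over C4 (26.1 against 25.9 CPM), and the HFpEF groups overlapped each other. Group means were 24.2 ± 1.59, 28.0 ± 2.30 and 30.9 ± 2.75 CPM (SD, n = 4). The log2 difference from Control + Veh was 0.21 ± 0.080 for HFpEF + Veh and 0.35 ± 0.079, or 1.28-fold, for HFpEF + TYA-018. Between the HFpEF groups it was 0.14 ± 0.079 for HFpEF + TYA-018 over HFpEF + Veh, and -0.0048 with the deposited effective lengths in the fit. Odc1 (chr12:17544794-17551505) shared 24.3% of its 50-base stretches with 15 other genes, and those of them with counts averaged at most 0.0209 CPM.

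Sms (chrX:157443855-157492287), which makes spermine, was likewise higher on average in both HFpEF groups. It was 26.9, 29.4, 30.6 and 33.4 CPM in the controls, 36.0, 31.9, 35.9 and 34.1 CPM in HFpEF + Veh and 35.4, 33.7, 35.5 and 33.6 CPM in HFpEF + TYA-018. The HFpEF + TYA-018 hearts all lay above the controls, by 33.6 (T4) against 33.4 CPM (C4), and in HFpEF + Veh only V2 lay within the control range. Its log2 differences were 0.20 ± 0.066 for HFpEF + Veh and 0.20 ± 0.066 for HFpEF + TYA-018 over Control + Veh, and 0.00 ± 0.066 between the HFpEF groups. Sms shared 17.5% of its 50-base stretches with other genes, nearly all of them with the processed copy Sms-ps.

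Amd1 (chr10:40287458-40302186) and Srm (chr4:148591503-148594993) did not separate the groups. Amd1 was 97.1, 87.5, 100.6 and 94.2 CPM in the controls, 94.8, 89.0, 100.8 and 102.4 CPM in HFpEF + Veh and 104.0, 102.4, 101.0 and 99.6 CPM in HFpEF + TYA-018. Srm, the least counted of the 9 genes, was 6.31, 8.45, 7.38 and 7.14 CPM in the controls, 8.75, 7.67, 7.66 and 6.21 CPM in HFpEF + Veh and 8.54, 9.41, 8.47 and 7.61 CPM in HFpEF + TYA-018. The libraries of every pair of groups overlapped for both genes. Amd1 differences were 0.03, 0.07 and 0.10 on the log2 scale (SE 0.060), in the order HFpEF + Veh over Control + Veh, HFpEF + TYA-018 over HFpEF + Veh and HFpEF + TYA-018 over Control + Veh. Srm differences, in the same order, were 0.05, 0.17 and 0.22 (SE 0.117, 0.116 and 0.116). These values moved with the treatment of length. For HFpEF + Veh over Control + Veh, Amd1 was -0.11 on log2(TPM + 1) values and -0.08 with effective lengths in the fit. For HFpEF + TYA-018 over HFpEF + Veh, the same alternatives gave 0.45 and 0.29 for Amd1 and 0.48 and 0.36 for Srm. The medians over all genes were 0.09 and -0.01 in these 2 fits. Amd1 is uncertain as a single gene, because 78.1% of its 50-base stretches also occur in other genes, and 76.7% of all its stretches occur in Amd2, which was assigned a mean of only 0.347 CPM.

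In CPM, the antizyme transcripts were highest on average in the treated hearts. Their protein is made only when the ribosome skips a base at the end of a first reading frame, a shift that polyamines themselves promote, so antizyme output follows polyamine levels. The stretch that holds this site is shown for both genes because it is the regulatory element they share. The capitals mark the last codon of the first frame and the stop codon after it (TCC, TGA), on GRCm38 at chr10:80828280-80828309 (+) for Oaz1 and chr9:65686257-65686286 (+) for Oaz2, read from GENCODE M21 transcripts.
Oaz1: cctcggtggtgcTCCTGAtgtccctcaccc
Oaz2: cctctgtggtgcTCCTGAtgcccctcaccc
The windows were identical at 28 of 30 bases. The annotation joins the coding frames by leaving out 4 bases of this site in each gene. Read counts report the transcripts and not the frameshift.

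Oaz1 (chr10:80826656-80829290) was 116.6, 113.7, 114.5 and 110.2 CPM in C1 to C4, 115.5, 105.2, 131.3 and 113.0 CPM in V1 to V4, and 156.2, 132.2, 125.6 and 128.6 CPM in T1 to T4. Every HFpEF + TYA-018 heart lay above every control, and only V3 of the HFpEF + Veh hearts reached into the treated range. Its log2 difference was 0.03 ± 0.081 for HFpEF + Veh over Control + Veh, 0.22 ± 0.081 for HFpEF + TYA-018 over HFpEF + Veh and 0.25 ± 0.081 for HFpEF + TYA-018 over Control + Veh. Oaz1 shared 20.1% of its 50-base stretches with the processed copy Oaz1-ps, which was assigned a mean of 55.9 CPM, so reads of the pair could be split between them. Oaz1-ps was between 46.6 and 61.2 CPM in the controls, 41.8 and 55.1 CPM in HFpEF + Veh and 64.3 and 69.8 CPM in HFpEF + TYA-018. With both rows summed, an alternative added after the values were seen, the pair was between 157 and 176 CPM in the controls, 157 and 173 CPM in HFpEF + Veh and 193 and 224 CPM in HFpEF + TYA-018. The summed treated hearts then lay above all 8 others, with log2 differences of 0.30 ± 0.065 against each vehicle group and 0.00 ± 0.065 between the vehicle groups.

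Oaz2 (chr9:65668001-65690300) had the smallest standard errors of the 9 genes. It was 97.9, 102.9, 98.7 and 99.0 CPM in the controls, 98.7, 106.5, 109.4 and 101.6 CPM in HFpEF + Veh and 118.1, 116.9, 112.3 and 114.8 CPM in HFpEF + TYA-018. The treated hearts lay above all 8 vehicle hearts, and the vehicle groups overlapped. Its log2 difference was 0.06 ± 0.050 for HFpEF + Veh over Control + Veh, 0.15 ± 0.050 for HFpEF + TYA-018 over HFpEF + Veh and 0.21 ± 0.050 for HFpEF + TYA-018 over Control + Veh. The second value turned to -0.05 when the deposited effective lengths were entered in the fit. The first value was then 0.35, and 0.30 on log2(TPM + 1) values, so the split of the rise between model and TYA-018 depended on the treatment of length.

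Azin1 (chr15:38487427-38519266), the antagonist of the antizymes, was 25.5, 19.5, 24.3 and 25.3 CPM in the controls, 27.1, 25.5, 33.7 and 27.6 CPM in HFpEF + Veh and 23.0, 22.6, 26.003 and 28.8 CPM in HFpEF + TYA-018. All pairs of groups overlapped, with V2 level with C1 and 3 of 4 HFpEF + Veh hearts above every control. Its log2 difference was 0.27 ± 0.112 for HFpEF + Veh over Control + Veh, -0.18 ± 0.112 for HFpEF + TYA-018 over HFpEF + Veh and 0.09 ± 0.112 for HFpEF + TYA-018 over Control + Veh. On log2(TPM + 1) values the second difference was 0.08, where the median over all genes was 0.09.

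Against the fit over all genes (edgeR, two-sided, Benjamini-Hochberg adjusted p under 0.05), the 9 genes were set beside the background without a reading, because the same contrasts chose them. For HFpEF + Veh against Control + Veh 1 of 9 passed (Smox, higher), where 21.2% of all genes tested passed, and 2 of 9 did not overlap between groups (Smox and Odc1), where 23.5% of all genes did not. For HFpEF + TYA-018 against HFpEF + Veh 1 of 9 passed (Smox, lower), with 19.3% over all genes, and 2 of 9 did not overlap (Smox and Oaz2), with 25.1% over all genes. For HFpEF + TYA-018 against Control + Veh 2 of 9 passed (Odc1 and Oaz2, higher), with 5.86% over all genes, and 4 of 9 did not overlap (Odc1, Sms, Oaz1 and Oaz2), with 14.8% over all genes. The median log2 difference of the 9 genes was 0.06, 0.07 and 0.20 in these comparisons, beside -0.01, 0.00 and -0.02 over all genes tested. Of the 9 genes 9, 6 and 8 were above 0. In the first comparison Amd1, Srm, Sat1 and Oaz1 lay within 1 SE of 0. Each of them changed sign in at least 1 fit that left out a library. The comparisons share groups and are not independent of each other. Neither Odc1 nor Oaz2 passed in the third comparison when T1, T2 or T3 was left out, on log2(TPM + 1) values or with effective lengths in the fit. Odc1 also failed without C1 or C2, and Oaz2 without C3, C4 or T4. They passed in 10 and 9 of 17 alternatives.

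**Figure D2:**
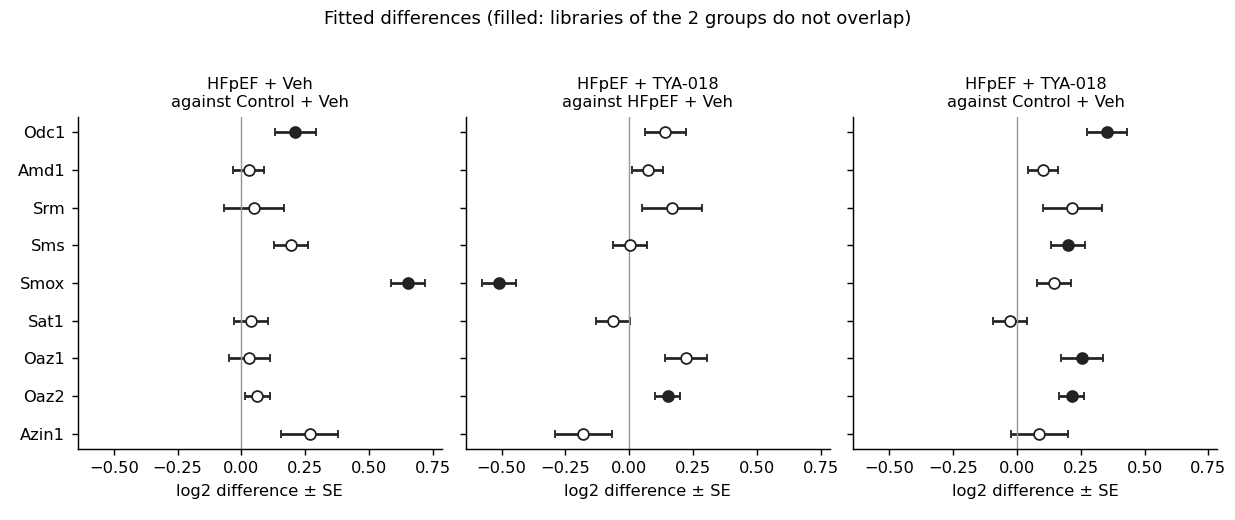
Fitted log2 differences of CPM (x axis, point ± SE) of the 9 genes in the 3 comparisons of groups; filled points mark genes whose 4 libraries of one group do not overlap the 4 of the other. Smox sits at 0.65 in the first panel and -0.51 in the second, and the other 8 genes lie between -0.18 and 0.35 in every panel.

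Levels of different genes can be compared only per length, so the order of the genes was taken from TPM (transcripts per 1e06 transcripts). Oaz1 had the highest mean TPM over the 12 libraries, 86.4, and was above the next gene, Sat1 at 14.8 TPM, in 12 of 12 libraries. Oaz2 (13.9 TPM) was close to Sat1, which was higher in only 7 of 12 libraries. Oaz2 was above Smox (7.46 TPM) in 11 libraries, and Smox was above Sms (6.15 TPM) in 9. Smox and Sms averaged 5.58 and 5.51 TPM in Control + Veh, 9.23 and 5.53 TPM in HFpEF + Veh and 7.57 and 7.42 TPM in HFpEF + TYA-018, so they were about level outside HFpEF + Veh. Sms was above Odc1 (4.71 TPM) in 12 of 12 libraries, whereas Odc1 and Amd1 (4.52 TPM) changed places, Odc1 being higher in 7. Amd1 was above Srm (2.11 TPM) in 12 of 12 libraries and Srm above Azin1 (0.934 TPM) in 11. The levels of Oaz2, Amd1 and Azin1 per length are uncertain, since their deposited effective lengths exceeded the longest transcript annotated in GENCODE M21 in 12 of 12 libraries, as did that of Srm in 6. T1, the deepest library, had the highest TPM of the series for 8 of the 9 genes, Smox being the exception (highest in V2). It reached 155.4 TPM for Oaz1 and 22.5 TPM for Oaz2. T1 also had the lowest share of mitochondrially encoded counts (35.4%), and in CPM it was highest only for Amd1, Oaz1 and Oaz2.

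**Figure D3:**
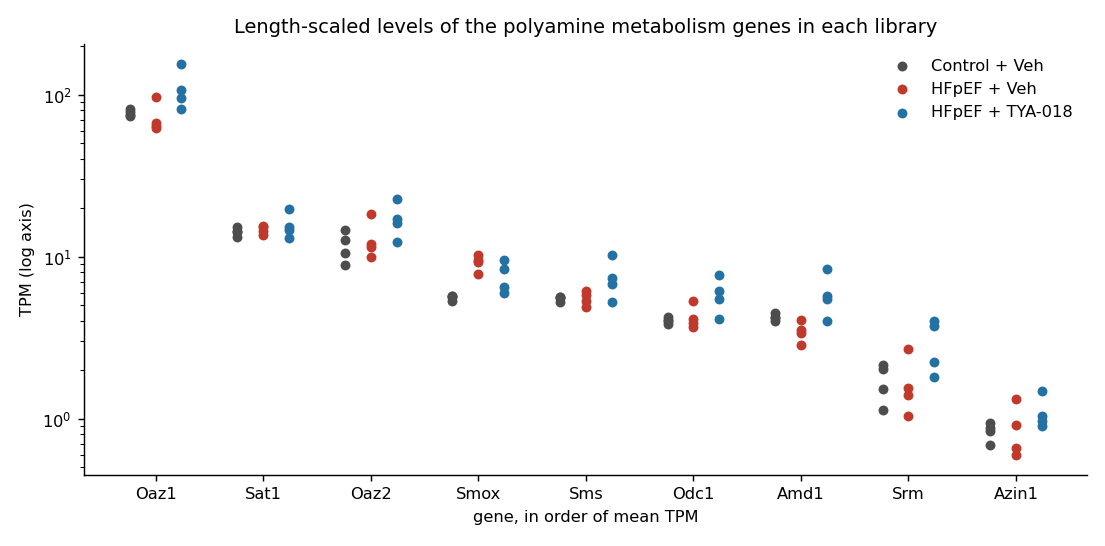
Deposited TPM (y axis, logarithmic) of the 9 polyamine metabolism genes in each library, coloured by group, with genes in the order of their mean TPM. Oaz1 lies between 61.8 and 155.4 TPM, above every other gene, and Azin1 lies lowest with a mean of 0.934 TPM.

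Other genes of the pathway, or related to it, were taken from a list of 33 genes from general knowledge, of which 30 passed the filter. Arg2, Aoc1 and Oaz3 did not, with at most 11, 3 and 7 counts in a library. A place on the list, as for Aoc3 and Sat2, does not show that the gene's product acts on polyamines in the heart. In HFpEF + Veh against Control + Veh 9 of the 30 passed the test (edgeR quasi-likelihood test with Benjamini-Hochberg adjustment over all 14333 genes), 3 higher and 6 lower, and 10 did not overlap between groups, beside 21.2% and 23.5% of all genes tested. The median log2 difference of the 30 genes was -0.01, the same as that of all genes to 2 decimals.

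In the transport list, 2 of 6 genes rose in HFpEF + Veh and none fell. Slc3a2, the heavy chain of amino acid transporters, rose from 22.0 ± 5.96 to 34.6 ± 4.58 CPM (log2 difference 0.66 ± 0.196, adjusted p = 0.0332). Slc12a8, a membrane carrier, rose from 0.348 ± 0.192 to 0.780 ± 0.125 CPM (1.16 ± 0.374, adjusted p = 0.0454). Atp13a3, a polyamine-transporting ATPase, was 14.9 ± 2.74 and 21.7 ± 2.48 CPM and missed the threshold (adjusted p = 0.0525).

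In the list of oxidation and salvage, 1 of 9 genes rose and 3 fell in HFpEF + Veh. Aoc3, an amine oxidase of the cell surface in vessels and fat, rose from 19.1 ± 1.70 to 29.7 ± 3.05 CPM (0.63 ± 0.105, adjusted p = 0.00203). Sat2, an acetyltransferase related to Sat1, fell from 2.31 ± 0.184 to 1.44 ± 0.288 CPM (-0.68 ± 0.166, adjusted p = 0.0139). The methionine salvage enzymes Mtap and Mri1, which recycle the by-product of polyamine synthesis, fell by 0.25 and 0.55 on the log2 scale (adjusted p = 0.0351 and 0.0188).

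In the precursor list 2 of 6 genes fell. Oat, which links ornithine to glutamate, fell from 80.3 ± 2.33 to 69.9 ± 4.14 CPM (-0.20 ± 0.057, adjusted p = 0.0266). Arg1, the arginase best known from liver, fell from 0.603 ± 0.413 to 0.0717 ± 0.0400 CPM (-3.05 ± 0.795, adjusted p = 0.0185), which is 16 to 72 counts in a control library and 2 to 7 in an HFpEF + Veh library. The 4 liver transcripts Alb, Apoa1, Apoa2 and Ttr moved with it, summing to between 25.2 and 73.9 CPM in Control + Veh, 2.31 and 12.7 CPM in HFpEF + Veh and 2.98 and 63.8 CPM in HFpEF + TYA-018, with 3 of 4 past the threshold in HFpEF + Veh against Control + Veh. Their part in the Arg1 result was not tested. In the hypusine list 1 of 4 genes fell, Dhps, which uses spermidine to modify the translation factor Eif5a, from 11.9 ± 1.22 to 8.57 ± 0.618 CPM (-0.47 ± 0.101, adjusted p = 0.00736). None of the 3 Myc family genes and neither of the 2 homologues Amd2 and Azin2 passed. The calls of Aoc3, Sat2 and Dhps held whichever library was left out. The others were lost with adjusted p between 0.0512 and 0.118, Arg1 without C3, V2 or V3, Oat without C3, C4, V1, V2 or V4, Mtap without C2, C4, V1, V2 or V4, Mri1 without C2, V3 or V4, Slc3a2 without C2, C3, C4, V2 or V4, and Slc12a8 without any library but C1 and T3. None of the 9 calls held on log2(TPM + 1) values with limma, and those of Aoc3, Slc3a2 and Arg1 held with effective lengths in the fit.

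With TYA-018, 9 of the 30 genes passed against HFpEF + Veh, 6 higher and 3 lower, and 11 did not overlap, beside 19.3% and 25.1% of all genes tested. The median log2 difference of the 30 was 0.09, beside 0.00 over all genes. The hypusine enzymes Dhps and Dohh, 2 of 4 genes of their list, rose by 0.44 ± 0.101 and 0.28 ± 0.086 (adjusted p = 0.0117 and 0.0379), to 11.6 ± 1.37 and 34.9 ± 1.55 CPM. Oat rose from 69.9 ± 4.14 to 86.9 ± 4.09 CPM (0.32 ± 0.057, adjusted p = 0.00404). The salvage enzymes Mri1 and Apip rose by 0.47 ± 0.143 and 0.36 ± 0.097 (adjusted p = 0.0380 and 0.0233). Aoc3 fell from 29.7 ± 3.05 to 20.4 ± 2.79 CPM (-0.54 ± 0.105, adjusted p = 0.00548). The 2 polyamine ATPases went opposite ways. Atp13a2, which exports polyamines from lysosomes, rose from 15.2 ± 0.620 to 18.8 ± 1.04 CPM (0.31 ± 0.063, adjusted p = 0.00711). Atp13a3 fell from 21.7 ± 2.48 to 13.9 ± 3.68 CPM (-0.65 ± 0.184, adjusted p = 0.0299). Max, the partner of Myc, fell by 0.39 ± 0.118 on the log2 scale (adjusted p = 0.0373), although its libraries overlapped.

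Oat, Aoc3, Dhps and Atp13a2 kept the TYA-018 call whichever library was left out. The others lost it with adjusted p between 0.0505 and 0.109, Mri1 without C3, C4, V1, V3, V4, T1, T2 or T3, Apip without V1, V3 or T1, Dohh without any library but C1, C2 and V2, Atp13a3 without V1, V3, V4, T1 or T2, and Max without C3, V1, V2, V4, T1, T3 or T4. With effective lengths in the fit the direction turned for Dhps (-0.01), Apip (-0.07) and Max (0.02), and on log2(TPM + 1) values for Max (0.20), and only Oat and Mri1 passed under both of these alternatives. Against Control + Veh, none of the 30 genes passed in HFpEF + TYA-018 by edgeR or by DESeq2. Over all genes tested, 5.86% passed by edgeR, and 1513 genes passed by DESeq2. Of the 30 genes, 1 did not overlap between these groups, beside 14.8% of all genes tested. An unadjusted p under 0.05 was found for 3 of the 30 by edgeR and 4 by DESeq2.

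**Figure D4:**
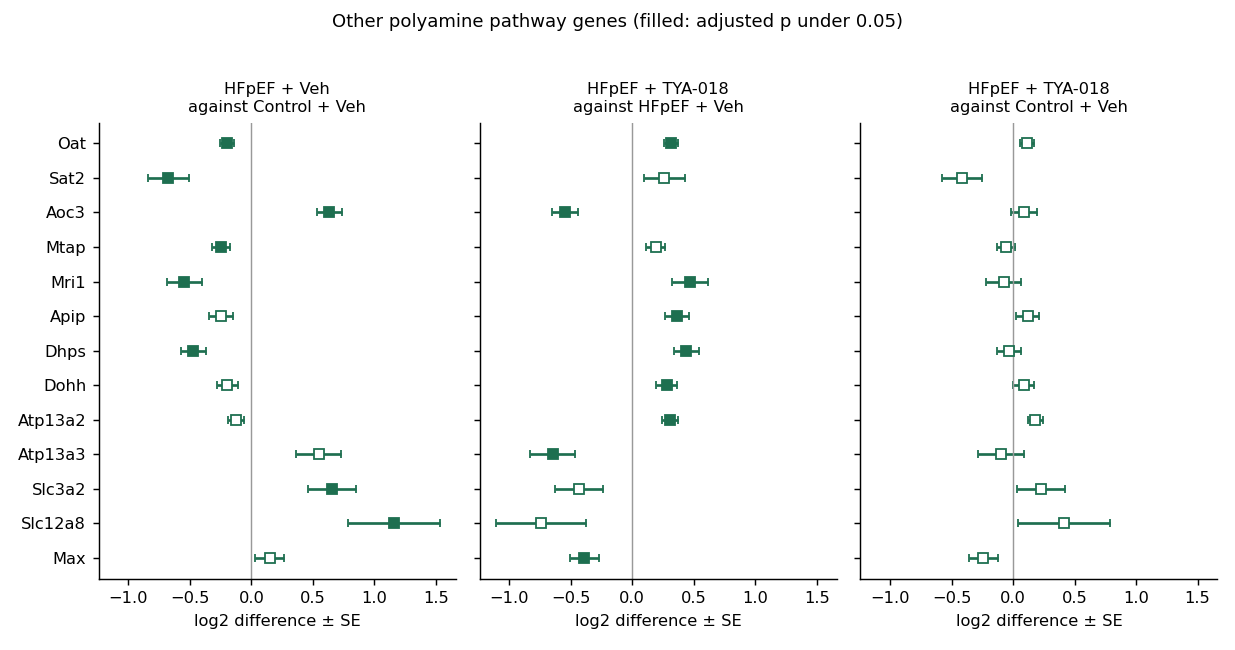
Fitted log2 differences of CPM (x axis, point ± SE) of the 13 other pathway genes that passed in at least 1 comparison, without Arg1, whose -3.05 lies outside the axis; filled squares have an adjusted p under 0.05. Dhps and Aoc3 are filled in the first 2 panels with opposite signs, and no square is filled in the third.

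The genes whose log2 CPM followed that of a polyamine gene most closely over the 12 libraries are given for the 3 members with the widest range of group means, as a description over points that share groups and libraries. For Smox these were Ucp2, a mitochondrial carrier (Pearson r = 0.96), Cap1, an actin regulator (0.96), and Tubb5, a beta-tubulin (0.95). Ucp2 was 55.0, 111.7 and 61.7 CPM on average in the controls, the vehicle-treated HFpEF group and the TYA-018 group. For Odc1 they were Hist2h2be, a histone (0.95), Klhl41, a muscle protein of the Kelch family (0.93), and Psmd8, a proteasome subunit (0.91). For Azin1 they were Selt, a selenoprotein of the endoplasmic reticulum (0.95), Otud6b, a deubiquitinase (0.93), and Ccdc47, a protein of the endoplasmic reticulum (0.91). Among the 9 genes themselves, over the same 12 libraries, Odc1 and Oaz2 had r = 0.80, Oaz1 and Oaz2 0.79 and Odc1 and Sms 0.78, whereas Smox had 0.27 with Odc1 and 0.55 with Sms.

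Markers of several cell types differed between the groups together with Smox, Aoc3 and the other pathway genes. The 5 macrophage markers with a row summed to between 69.1 and 83.2 CPM in Control + Veh, 102.7 and 133.5 CPM in HFpEF + Veh and 76.2 and 87.5 CPM in HFpEF + TYA-018, and 4, 3 and 0 of them passed in the 3 comparisons. The 4 endothelial markers summed to between 537 and 669, 715 and 879, and 523 and 680 CPM in the same order of groups. The 5 fibroblast markers summed to between 408 and 612, 604 and 857, and 394 and 581 CPM. Of the cardiomyocyte markers, whose sums are given above, 5, 1 and 2 of 6 passed in the 3 comparisons. The 4 lymphocyte markers, of which 2 passed the filter on low counts and 1, 0 and 0 the test, summed to 1.36 to 1.92, 0.866 to 1.30 and 0.862 to 1.04 CPM. The 4 smooth muscle markers overlapped in all groups, at 136 to 260, 165 to 231 and 173 to 229 CPM, and none passed in any comparison. Globin transcripts made up between 0.154% and 0.2401%, 0.420% and 1.32%, and 0.255% and 0.341% of counts. None of these markers was at 0 in all libraries, and their part in the results was not tested. In whole ventricle, fewer cells of a type and less RNA per cell cannot be told apart.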

How the data were processed

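Poly(A) RNA of 12 mouse left ventricles was sequenced, and 3 tables of 29564 genes by 12 libraries were analysed. Per the paper's methods and the labels, the authors trimmed reads with fastp, quantified transcripts with Salmon 1.6.0 (corrections for sequence, GC and position) on GENCODE transcripts of GRCm38 and summed them to genes with tximport. The genome named in the submitters' processing notes is hg38, although gene symbols are those of mouse. The deposited estimated counts are fractional where a read fits several transcripts (76.7% were whole to within 0.0005), and reads of near copies are split by estimate. The deposited TPM values were made by the authors from those counts and from another kind of deposited value, the effective length per gene and library. Labels and methods differ in read length and layout.

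Counts were rounded, filtered with filterByExpr (14333 genes kept) and scaled by TMM in edgeR 4.0.16 (R 4.3.3). One quasi-likelihood model over the 12 libraries gave log2 differences with SE (9 residual degrees of freedom), two-sided tests and Benjamini-Hochberg adjustment over all genes tested, with a threshold of 0.05. CPM are scaled by TMM and given as mean ± SD, n = 4. The deposited columns were all used (0 left out). The fit was checked on simulated counts, where 66% of 200 genes changed 2-fold in HFpEF + Veh were recovered at the threshold. The simulation changed only those 200 genes and gave every gene the same spread (biological coefficient of variation 0.232). The 66% is therefore not a rate for genes of these libraries with another spread, such as the 9 described. A gene that did not pass can still differ. Alternatives were relative log expression (RLE) size factors, no low-count filter, DESeq2 1.42.0, limma 3.58.1 on log2(TPM + 1) without mitochondrially encoded genes, effective lengths as offset, and leaving out each library. Sharing of sequence was counted as 50-base windows of GENCODE M21 transcripts found in another gene. Coordinates are GRCm38.

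The 9 genes and all lists were chosen with earlier results of these data known, and the lists give no independent support. All 9 genes are named with values. Of the other pathway genes, each one called in at least 1 comparison is named. Genes of like pattern are the 3 with the highest Pearson r of log2 CPM (mean CPM of 5 or more) for the 3 members with the widest range of group means. Each mouse gave 1 library, and total counts of 61.2 to 83.9 M (1e06) limit the precision of genes with few counts such as Arg1. Proteins were not analysed here.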

Additional observations from a re-analysis of the deposited data

Results flagged for a closer look

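Of 69 sets of 4 libraries of the genes named (23 genes in 3 groups), 2 held a library far from the others by Dixon's rule, which chance gives in about 1 set of 20. Mri1, a methionine salvage enzyme, was 8.05 CPM in T4 and between 9.52 and 9.79 CPM in the other HFpEF + TYA-018 libraries. Dhps, the spermidine-using enzyme of hypusine formation, was 9.49 CPM in V1 and between 8.16 and 8.39 CPM in the other HFpEF + Veh libraries. None of the 27 sets of the 9 polyamine genes held such a library.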

How the results depend on the processing

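No paired analysis was possible because the groups had no animal number in common. Counts are in the order of the comparisons: HFpEF + Veh over controls, TYA-018 over HFpEF + Veh, and TYA-018 over controls. Past the threshold were 1, 1 and 2 of the 9 polyamine genes, 9, 9 and 0 of the 30 other pathway genes and 3033, 2767 and 840 of all genes. RLE size factors and the absence of a low-count filter kept each count within 1.5 times. DESeq2 gave 2, 3 and 3 polyamine genes and 3754, 3411 and 1513 genes in all. On log2(TPM + 1) with limma, 0 polyamine genes passed in the last comparison, 0 and 4 other pathway genes in the first 2, and 431, 718 and 25 genes in all. With effective lengths as offset, 2 (Smox and Sat1) and 0 polyamine genes passed in the last 2 comparisons. The same fit called 4 and 4 other pathway genes in the first 2, and 1444, 1221 and 206 genes in all. Leaving out 1 library gave 1 to 2, 1 to 2 and 0 to 2 polyamine genes, 4 to 14, 4 to 10 and 0 to 1 other pathway genes, and 1986 to 3992, 1485 to 3251 and 308 to 809 genes in all. Among called pathway genes, the direction under TYA-018 against HFpEF + Veh turned for Dhps (-0.0141), Apip (-0.0727) and Max (0.0202) with lengths as offset and for Max (0.20) with limma. Among the polyamine genes it turned for Odc1 (-0.0048), Oaz2 (-0.051) and Sms (-0.051) with lengths as offset and for Azin1 (0.080) with limma. The median over all genes in that limma comparison was 0.093, so Azin1 stayed below it. Sms, at 0.0033 in the main fit, also turned with RLE size factors (-0.00015), with DESeq2 (-7.6e-05) and in 4 fits that left out a library. Of 462 alternative values of the polyamine genes' differences, 434 moved by less than 1 SD between libraries and 28 by more. The cause was not tested.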
